A study of Mus musculus with 59 samples.

Results

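Gene expression in the forestomach was compared between 10 male Muta™Mouse that received 25 or 50 mg/kg-bw/day benzo(b)fluoranthene (BbF), taken as 1 pooled group, and 5 that received the olive oil vehicle alone. The 15 arrays, out of 59 in the series, were chosen by their source labels alone: D1_forestomach (low dose, 5 mice) and D2_forestomach (medium dose, 5 mice) against D0_forestomach (vehicle, 5 mice). The Muta™Mouse is a transgenic strain that carries a bacterial lacZ reporter for mutation assays, and all groups, vehicle included, carried it. All mice were about 16 weeks old, were dosed daily by oral gavage for 28 days and were sampled 72 hours after the last dose, and RNA was extracted from random sections of the frozen tissue. The labels disagree on the compound: sample titles and protocol give BbF, while the exposure field and the design text give benz(a)anthracene. It is called BbF here because the doses are those of the BbF study. Mice 1 to 5 received vehicle, mice 6 to 10 the low dose and mice 11 to 15 the medium dose. The high dose (100 mg/kg-bw/day, mice 16 to 20) and the lungs of the same mice served as comparisons. The question was whether 10 dosed mice together show a response in forestomach beyond that of the low or the medium dose alone.

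BbF is a polycyclic aromatic hydrocarbon. Compounds of this class bind the aryl hydrocarbon receptor (AhR), which drives transcription of the Cyp1 enzymes, and these enzymes turn them into reactive metabolites that bind DNA. DNA damage in turn activates p53, which induces genes of cell cycle arrest, repair and apoptosis. The rodent forestomach, the first tissue to receive an oral dose, is lined by a keratinized squamous epithelium and adjoins the acid-secreting glandular stomach.

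Each value below is a log2 ratio of a sample's RNA (Cy5) to universal mouse reference RNA from a pool of cell lines (Cy3) on the same array, and a difference is that of the pooled doses minus vehicle on the same log2 scale, with the slide as a block. The squamous identity of the tissue was evident on all 15 arrays, with log2 ratios of at least 3.40 for Krt5, 3.44 for Krt14, 5.41 for Krt4, 4.76 for Krt13, 6.69 for Lor and 4.45 for Sbsn. Trp63, the regulator of squamous identity, lay between 0.18 and 0.94. In the lungs it lay between 0.25 and 1.06, so its probe did not set forestomach apart from lung. Between 39.6% and 49.7% of probes were well above background in Cy5, the lowest shares being on slide 3. Each of the 3 slides held arrays of all groups, but each dose group occupied its own column of the slides, so that dose and position on the slide cannot be told apart. Slide 3 held 1 vehicle array, that of mouse 3. Leaving out this mouse therefore removed the contrast with vehicle of the whole slide.

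Other tissues were present in some samples of every group. The glandular stomach genes, among them the proton pump gene Atp4a and the mucin gene Muc5ac, had a mean log2 ratio (score) of 6.43, 0.79, 3.97, 5.74 and 2.26 in vehicle mice 1 to 5, of 6.09, 0.85, 0.78, 6.95 and 6.13 in low-dose mice 6 to 10 and of 5.90, 0.22, 6.46, 6.36 and 1.11 in medium-dose mice 11 to 15. High and low scores thus occurred in each group, and Atp4a had a log2 ratio of 3 or more in 2 vehicle, 3 low-dose and 3 medium-dose mice. The score of adipocyte genes was highest in vehicle mice 5 (4.98) and 3 (3.88), followed by medium-dose mouse 15 (3.63), low-dose mouse 8 (3.01) and medium-dose mouse 12 (2.90). The score of skeletal muscle genes was 3.83 in vehicle mouse 5 and 4.32 in medium-dose mouse 12 and at most 1.32 in the other 13 mice. None of the 10 glandular stomach genes, and 1 of 9 adipocyte genes, had an unadjusted p under 0.05 between the pooled doses and vehicle, with median differences of 0.42 and -0.81. In whole tissue, fewer cells of a type and less RNA per cell cannot be told apart.

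**Figure D1:**
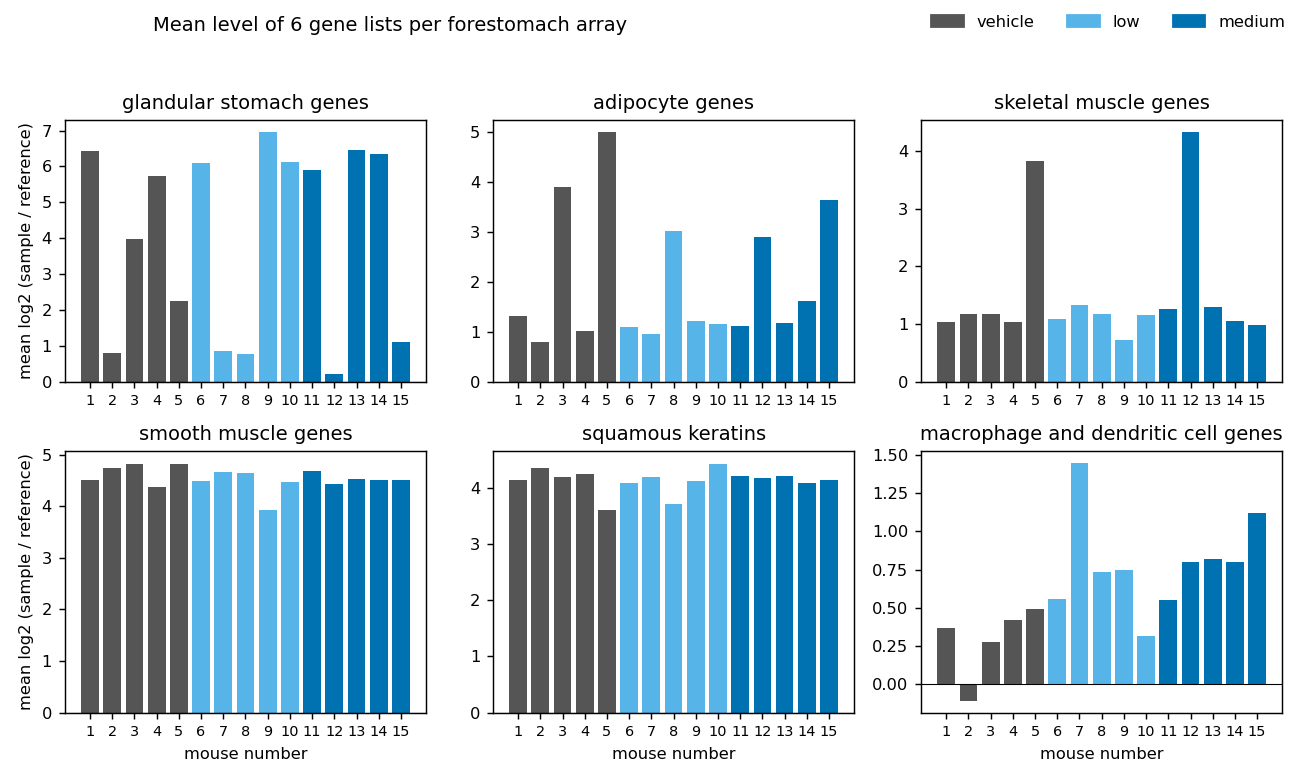
Mean log2 ratio of sample over reference (y axis) of 6 gene lists on each of the 15 forestomach arrays (x axis, mouse number), coloured by dose group. The glandular stomach score ranged from 0.22 to 6.95 with high values in all 3 groups, whereas the keratin and smooth muscle scores varied little, and the macrophage and dendritic cell score exceeded that of all vehicle mice in 9 of 10 dosed mice.

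Pooling the doses did not yield a differentially expressed gene (DEG, adjusted p of 0.05 or less and 1.5-fold or more in either direction). Of 37163 genes or transcripts, 0 were DEGs (0%), and the smallest adjusted p in limma was 0.731. By limma, 2959 of 55681 probes (5.31%) had an unadjusted p under 0.05. The low and the medium dose on their own also gave 0 DEGs against the same vehicle arrays, with smallest adjusted p of 0.952 and 0.443 in limma and 2502 and 2713 probes at an unadjusted p under 0.05, and the medium dose against the low dose gave 0 DEGs as well (0.0584, with 1930 probes). Among 17240 genes that were well above background throughout vehicle or throughout the pooled doses, the median half-width of the 95% interval of the difference was 0.222, and for 14417 of them (83.6%) the whole interval lay within 1.5-fold. A further 262 of the 17240 had estimates of 1.5-fold or more above vehicle and 42 had estimates as far below, without passing the test. The high dose, also 5 mice, gave 54 DEGs out of 37163 against the same vehicle mice. With another statistic, the paper called Dbp, Fgf9, Skint3 and Fgfr1op2 at the medium dose in these samples. At the low dose it listed Rmrp and Slc7a3 as lower, besides probes without a symbol.

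The 12 genes of smallest p among well-measured genes comprised 8 that were higher at the pooled doses (Fgf9, Oas1c, Nr1d2, Ppfia4, Sgsm2, Dbp, Ppp2r2c and Stk38l) and 4 that were lower (Gpatch1, Dido1, Rpap2 and Kcna1). None passed the test. Fgf9 (NM_013518), a fibroblast growth factor that signals between epithelium and mesenchyme, had the smallest p of all genes. Its log2 ratios were 0.91, 0.29, 1.20, 0.97 and 1.07 in vehicle mice, 1.59, 1.79, 1.96, 1.30 and 2.17 in low-dose mice and 1.84, 2.29, 1.69, 1.65 and 2.18 in medium-dose mice. The lowest dosed mouse was thus above the highest vehicle mouse. All 10 dosed mice were above all 5 vehicle mice in 17 of all genes (0.0457%) and below them in 9 (0.0242%). The difference for Fgf9 was 0.90 ± 0.15 (SE; 95% interval 0.57 to 1.24; limma adjusted p 0.731), and it was 0.84 at the low and 0.97 at the medium dose. At the high dose the 5 values lay between 1.90 and 2.50. Without low-dose mouse 9 the difference for Fgf9 was 0.96 and passed the test (limma adjusted p 0.0194). Mouse 9 had the lowest Fgf9 value of the dosed mice (1.30), so that this fit is no separate support. Leaving out any other mouse did not make Fgf9 pass.

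Dbp and Nr1d2, both of the circadian clock, are described with the clock genes. Ppp2r2c, a regulatory subunit of protein phosphatase 2A, had log2 ratios of 1.06 to 1.78 in vehicle and 1.69 to 2.66 at the pooled doses, overlapping only through low-dose mouse 6, and a difference of 0.71 ± 0.15 (SE, limma adjusted p 0.751). Kcna1, a voltage-gated potassium channel, had a difference of -0.52 ± 0.10 (SE, limma adjusted p 0.731). Its vehicle values were 2.96, 2.85, 2.28, 2.88 and 2.93, and the low value of vehicle mouse 3 fell among those of the dosed mice, which ranged from 1.65 to 2.93. On slide 3, where mouse 3 was the only vehicle mouse, the dosed mice had 1.65 to 1.96. Gpatch1 (-0.43) showed the same vehicle mouse apart, at 0.26 against 0.97 to 0.99 in the other 4. The dosed mice of slide 3 had -0.29 to 0.18 for Gpatch1. The differences of Oas1c (0.44), Ppfia4 (0.39), Sgsm2 (0.37), Dido1 (-0.36), Rpap2 (-0.34) and Stk38l (0.54), all with limma adjusted p of 0.731 or 0.751, were each smaller than the threshold of 1.5-fold on the log2 scale. The named probe did not speak for every probe of its gene: a second probe gave -0.02 for Ppfia4 and 0.14 for Gpatch1, the brightest probe gave -0.01 for Dido1, and the other probes of Stk38l gave 0.16 and 0.20.

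**Figure D2:**
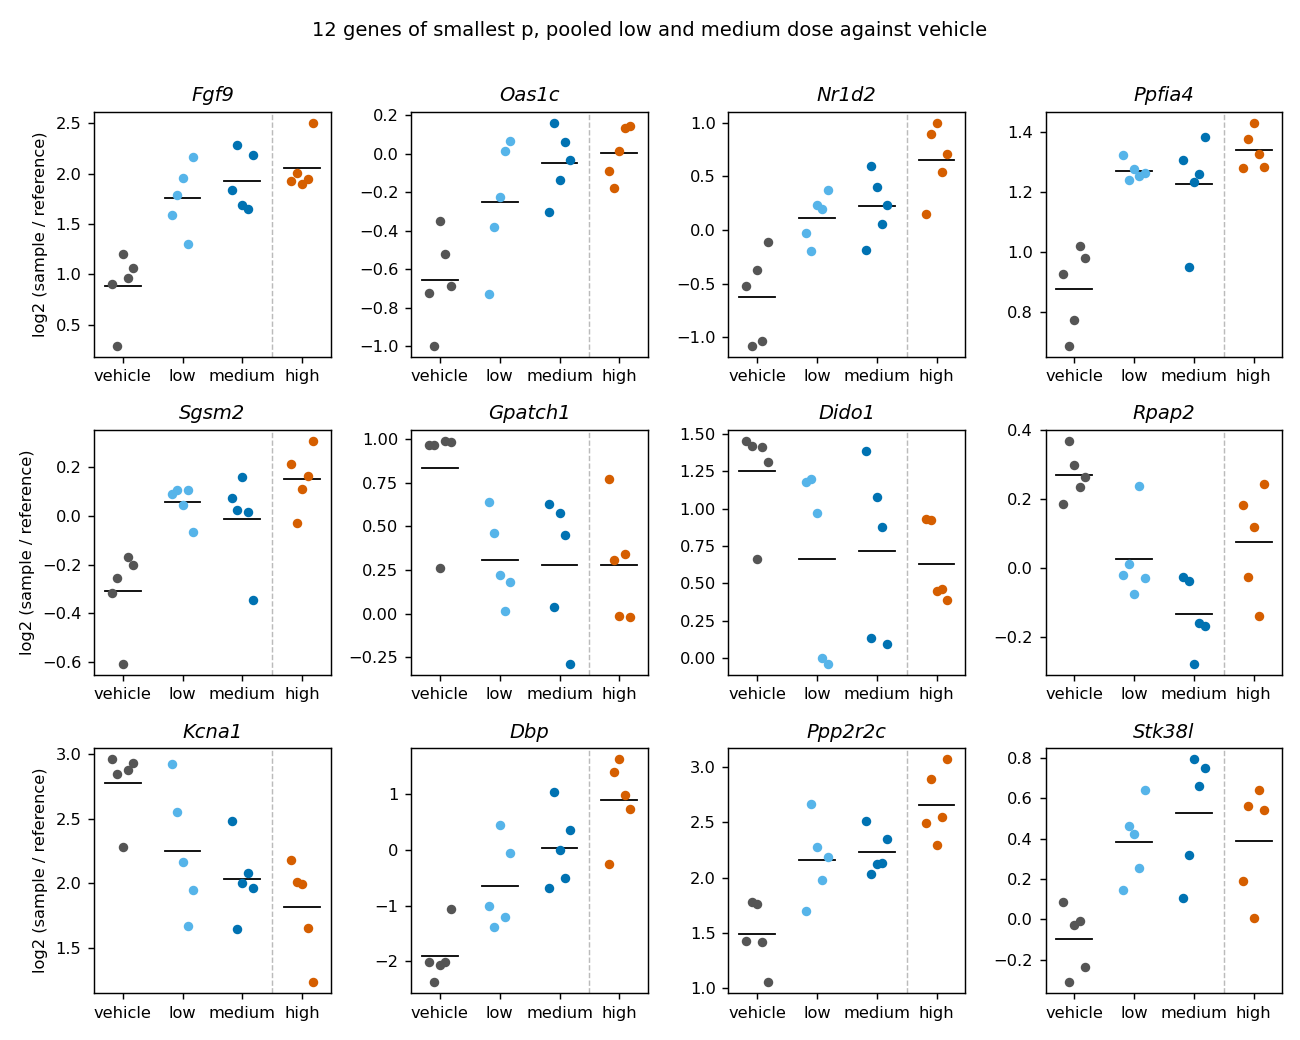
Log2 ratio of sample over reference (y axis) of the 12 genes of smallest p on each of the 20 forestomach arrays by dose group (x axis); points are mice, short lines group means, and the dashed line sets off the high dose, which is not in the comparison. In Fgf9 and Stk38l no low- or medium-dose mouse overlaps the vehicle mice, and in the other 10 genes these groups overlap. For Stk38l, high-dose mouse 18 (0.0087) lies within the vehicle range.

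The clock genes were the first of 33 lists of genes examined by role. In the molecular clock, CLOCK and ARNTL drive genes through E-boxes in their promoters; among these are Dbp, Tef and Hlf, whose products act through D-boxes, the Rev-erb repressors Nr1d1 and Nr1d2, and the Period and Cryptochrome repressors. Of the 13 clock output and repressor genes, 6 were higher at an unadjusted p under 0.05 and 0 lower, while over all 37163 genes 922 were higher (2.48%) and 1059 lower (2.85%). The median difference was 0.18 for the list and -0.0035 for all genes. Of the 6 genes of the positive arm and Nfil3, which opposes Dbp at D-boxes, 3 were lower and 0 higher, with a median of -0.40. None of these genes was a DEG. The paper had called Dbp, Nr1d1 and Nr1d2 higher at the high dose against the same vehicle mice. The lists were chosen with earlier results of these data known, so their counts are no independent support. Without vehicle mouse 3, and so without the contrast with vehicle on slide 3, the count of 6 was 3. With median centring of each array in place of loess, 0 genes of the positive arm were lower (median -0.17), and over all genes, brightest probe of each, 3816 were higher (10.3%) and 780 lower (2.10%).

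The promoters of 4 of the 6 genes that were higher at an unadjusted p under 0.05 are shown, since the clock acts through motifs that can be read from a sequence. Each is the 250 bases before the transcription start in RefSeq (GRCm38.p6), read 5′ to 3′ on the gene's strand, with E-boxes (CACGTG) and D-boxes (TTATGTAA, both strands searched) in capitals. Dbp (chr7:45704997-45705246, plus strand) and Nr1d2 (chr14:18239107-18239356, minus strand) had the 2 largest differences, Tef (chr15:81802423-81802672, plus strand, the first of its 2 starts) holds an E-box 127 bases before the start, and Per3 (chr4:151044666-151044915, minus strand) holds D-boxes 205 and 158 bases before it.
Dbp: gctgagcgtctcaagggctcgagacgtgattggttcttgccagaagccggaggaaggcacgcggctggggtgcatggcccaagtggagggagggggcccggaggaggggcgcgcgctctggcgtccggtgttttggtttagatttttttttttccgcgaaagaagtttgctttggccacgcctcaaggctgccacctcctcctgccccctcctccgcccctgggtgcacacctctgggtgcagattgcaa
Nr1d2: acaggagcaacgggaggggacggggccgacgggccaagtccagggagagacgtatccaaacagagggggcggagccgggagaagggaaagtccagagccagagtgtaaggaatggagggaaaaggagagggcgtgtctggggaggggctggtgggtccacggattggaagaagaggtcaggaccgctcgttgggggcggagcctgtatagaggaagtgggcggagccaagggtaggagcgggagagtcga
Tef: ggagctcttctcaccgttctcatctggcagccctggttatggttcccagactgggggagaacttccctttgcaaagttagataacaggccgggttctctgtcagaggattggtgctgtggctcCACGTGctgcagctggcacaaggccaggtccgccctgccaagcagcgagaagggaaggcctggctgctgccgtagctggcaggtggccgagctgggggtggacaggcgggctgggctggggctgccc
Per3: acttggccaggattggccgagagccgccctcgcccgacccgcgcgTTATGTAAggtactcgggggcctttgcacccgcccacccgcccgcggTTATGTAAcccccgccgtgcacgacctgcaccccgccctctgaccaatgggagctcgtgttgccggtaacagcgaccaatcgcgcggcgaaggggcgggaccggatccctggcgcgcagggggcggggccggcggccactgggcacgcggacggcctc
Of the 13 output and repressor genes, 11 had a promoter sequence. Of these, 5 held an E-box (Tef, Per1, Ciart, Bhlhe41 and Cry1) and 1 a D-box (Per3) within these 250 bases. Dbp, Nr1d1 and Nr1d2 held neither motif, and Per2 had no promoter sequence. Counted by promoter, since Tef and Per1 have 2 each, 6 of 13 held an E-box and 1 a D-box. Of the 6 genes of the positive arm and Nfil3, 5 had a promoter and 0 held either motif. Over 32851 promoters of the same length, 6.02% held an E-box and 0.819% a D-box.

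Dbp (NM_016974) had log2 ratios of -2.02, -2.37, -2.07, -2.01 and -1.06 in vehicle mice, -1.02, -1.39, 0.44, -1.21 and -0.06 in low-dose mice and -0.69, 1.04, -0.00, -0.51 and 0.36 in medium-dose mice. The groups overlapped only through vehicle mouse 5, the highest of its group, which lay above low-dose mice 7 and 9. The difference was 1.53 ± 0.31 (SE; 95% interval 0.87 to 2.19; limma adjusted p 0.731), the largest of the 12 named genes, and its brightest probe gave 1.40. For Nr1d2 (NM_011584) the log2 ratios were -0.52, -1.08, -0.37, -1.03 and -0.11 in vehicle, -0.03, -0.19, 0.23, 0.20 and 0.37 at the low dose and -0.18, 0.59, 0.40, 0.05 and 0.23 at the medium dose, and again only vehicle mouse 5 reached into the dosed range. Its difference was 0.73 ± 0.14 (SE, limma adjusted p 0.731). The estimates for Dbp and Nr1d2 were 2.80 and 1.28 at the high dose against vehicle, and the high dose against the pooled doses did not pass for either (1.25 and 0.54; limma adjusted p 0.436 and 0.505).

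Among the other clock genes, Nr1d1 had a difference of 0.65, Tef of 0.45, Per2 of 0.28 and Per3 of 0.18. In the positive arm, the differences were -0.58 for Nfil3, -0.48 for Clock and -0.32 for Arntl, and Npas2 was at -0.00. The Arntl values were 0.66 to 0.80 in vehicle, 0.21 to 0.69 at the low and -0.19 to 0.46 at the medium dose, so that all 5 medium-dose mice were below the vehicle mice while the low dose overlapped. Nfil3 was the exception to a separation by group through 1 mouse, low-dose mouse 7, at -0.26 against -1.60 to -1.09 in the other 9 dosed mice. The times of day of sampling are not given in the sources used here, and their part in these differences was not tested. Among the added settings chosen after seeing the data, Nr1d2 passed the test with the scores of glandular stomach, adipocyte and skeletal muscle genes as covariates (0.85, limma adjusted p 0.0436).

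Genes of antigen presentation and of macrophages and dendritic cells were more often above vehicle than genes at large. MHC class I molecules display peptides that the immunoproteasome (Psmb8, Psmb9 and Psmb10) cuts and the transporter of Tap1 and Tap2 loads; MHC class II molecules, with their chaperones H2-DMa, H2-DMb1 and Cd74, are borne by macrophages, dendritic cells and B cells. Of 11 MHC class I processing genes, 7 were higher at an unadjusted p under 0.05 (median difference 0.59), as were 4 of 10 MHC class II genes (0.26) and 12 of 19 macrophage and dendritic cell genes (0.46), against 2.48% of all genes. None was lower in any of the 3 lists, and none was a DEG. These lists were chosen with earlier results of these data known. The paper had called Ccl8, Clec4n, Ctsh, Ms4a7, Ctss, Lyz1, Cd74 and H2-DMb1 higher at the high dose against the same vehicle mice. The counts are therefore no independent support. The class I count was 3 without vehicle mouse 2, 3 without slide 3 and 4 without vehicle mouse 3 or medium-dose mouse 13. Mouse 3 was the only vehicle mouse on slide 3. The macrophage count was 6 without vehicle mouse 2 or without slide 2.

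H2-DMb1, a chaperone that exchanges peptides on class II molecules, had log2 ratios of 0.79, 0.23, 0.57, 0.64 and 0.68 in vehicle mice, 0.98, 2.24, 1.18, 1.67 and 0.94 in low-dose mice and 1.24, 0.84, 2.03, 1.57 and 1.57 in medium-dose mice. The groups did not overlap, and the difference was 0.89 ± 0.21 (SE, limma adjusted p 0.780). Nor did they overlap for Tap2, with -1.81 to -1.44 in vehicle and -1.40 to -0.37 at the pooled doses (0.64 ± 0.16, SE, limma adjusted p 0.784). Both are among the 17 genes of that kind given above. H2-Aa, a class II chain, had the largest difference of its list at 1.05 and its highest value, 5.18, in low-dose mouse 7, which was also highest for Psmb9 (1.33 against -1.68 to 0.24 in the other dosed mice, difference 1.10). Without that mouse the median difference of the class I list was 0.34 and 7 of its genes were still higher.

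All 19 genes of the macrophage and dendritic cell list that were on the array had an estimate above 0. The largest difference was that of Ccl8, a monocyte-attracting chemokine (1.47 ± 0.64, SE, limma adjusted p 0.873), which spread widely, from 0.34 to 2.28 in vehicle and from 1.20 to 5.38 at the pooled doses. The smallest adjusted p of the list were those of Ctsh, a lysosomal protease (0.90 ± 0.21, SE), Lyz1, a lysozyme (0.87 ± 0.21, SE), and Clec4n, a C-type lectin (0.91 ± 0.22, SE), with limma adjusted p of 0.751, 0.753 and 0.784. Lyz1 ranged from 0.85 to 2.31 in vehicle and from 1.94 to 2.90 at the pooled doses, and Clec4n from 0.38 to 1.26 and from 0.80 to 2.23. The mean log2 ratio over the macrophage and dendritic cell genes was -0.11 to 0.49 in vehicle mice, 0.31 to 1.45 in low-dose and 0.55 to 1.12 in medium-dose mice. The pan-macrophage genes Csf1r (0.15) and Mrc1 (0.05) were close to vehicle. Of the other leukocyte lists, 1 of 9 T-cell genes (Cd3d, 0.34), 0 of 9 B-cell and plasma cell genes and 1 of 9 neutrophil and mast cell genes (S100a9, 0.57) were higher, with median differences of 0.02, -0.10 and 0.20. The lists were not tested against each other. Of 14 interferon-stimulated genes, 2 were higher (median 0.37), the largest estimate being that of Oas1a (1.37, limma adjusted p 0.873), and 3 of 20 chemokine ligands were higher, Ccl8, Cxcl14 (0.58) and Ccl11 (0.39). Whether other tissue in the samples contributed was not tested beyond the covariates. With the glandular stomach score as a covariate, an added setting, 14 of the 19 macrophage and dendritic cell genes, 7 of the class I and 4 of the class II genes were higher at p under 0.05, and so were 5.35% of all genes. With the adipocyte score added to it, the class I count was 3.

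**Figure D3:**
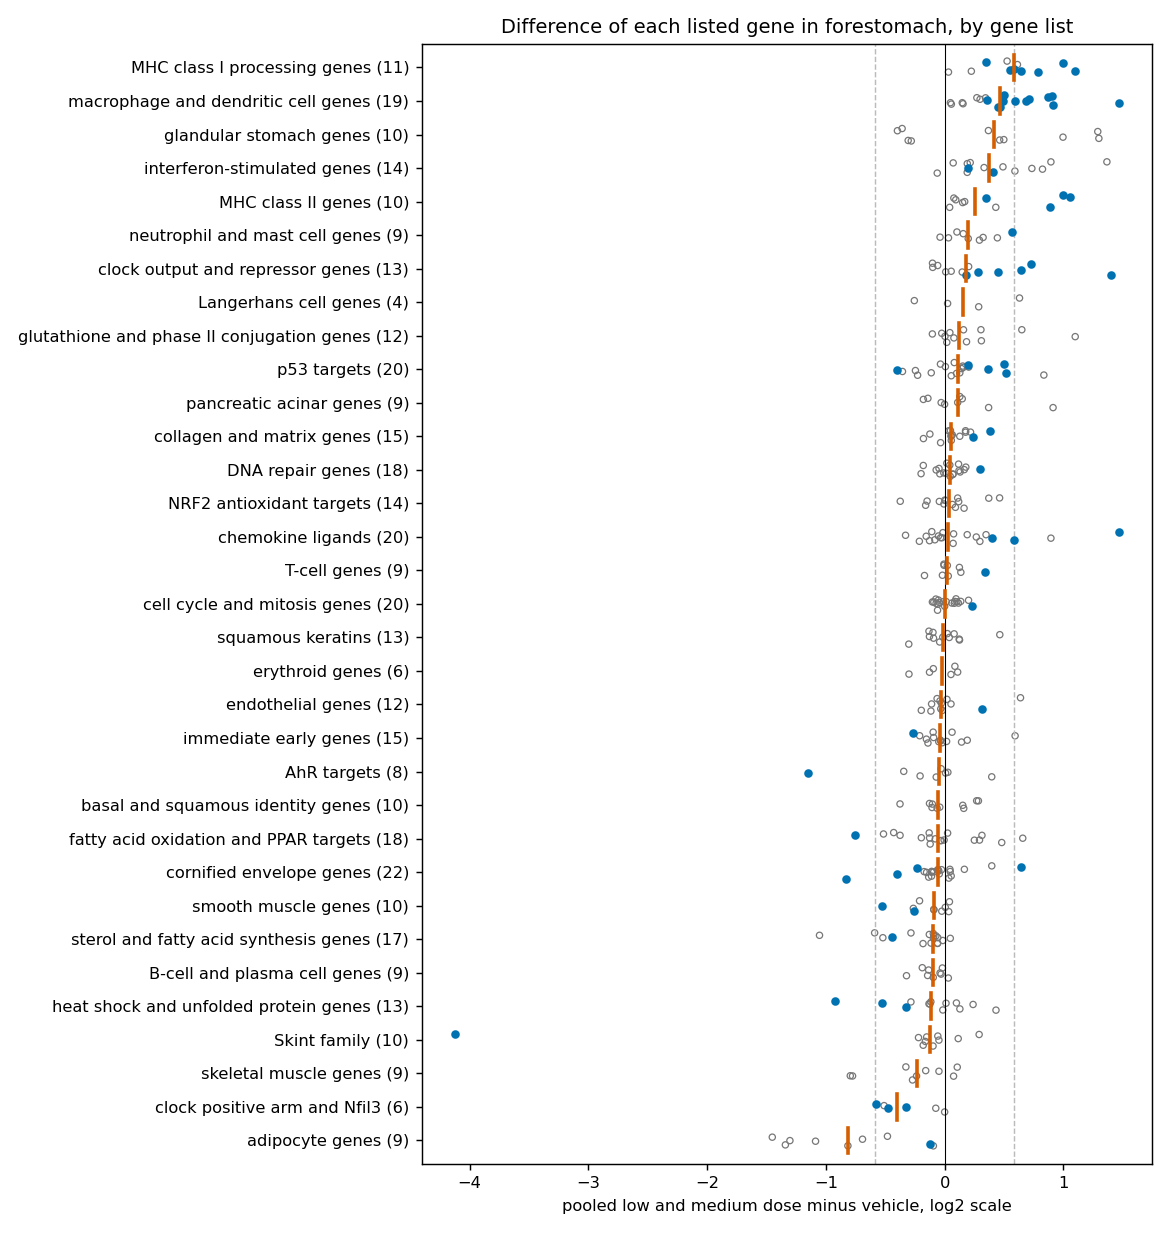
Difference between the pooled doses and vehicle on the log2 scale (x axis) for each gene of 33 lists (rows, with the number of genes on the array); filled points have an unadjusted p under 0.05, orange bars are list medians and dashed lines mark 1.5-fold. The MHC class I and macrophage lists have the highest medians (0.59 and 0.46) and the adipocyte list the lowest (-0.81), and Skint3 lies farthest from 0, at -4.12.

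Skint3 had the largest difference of all listed genes. It belongs to the Skint family, butyrophilin-related genes of skin and thymus. Its log2 ratios were 0.02, 5.95, 4.80, 5.08 and 5.25 in vehicle mice, -0.16, 0.26, -0.19, 3.49 and 0.10 in low-dose mice and between -0.37 and -0.03 in all 5 medium-dose mice. High values were thus found in 4 of 5 vehicle mice and 1 of 10 dosed mice (mouse 9), and the same 4 and 1 were those in which the probe was well above background. At the high dose 1 mouse had 4.19 and the other 4 had 0.12 to 0.28. The difference for Skint3 was -4.12 ± 0.82 (SE, limma adjusted p 0.731). It passed the test without vehicle mouse 1 (-5.12, limma adjusted p 0.0142) and, among the settings added after seeing the data, without the 8 arrays of high Atp4a (-5.28, limma adjusted p 2.41e-05, 7 arrays left). Mouse 1 was the vehicle mouse without a high Skint3 value. The 8 arrays included those of mouse 1 and of mouse 9, the dosed mouse with a high value. Leaving them out thus removed both exceptions, so that this fit is no separate support. The second probe of Skint3 was not well above background on any forestomach or lung array, and the other 9 Skint genes on the array had differences between -0.22 and 0.29. The lungs of the same mice had log2 ratios between -0.13 and 0.29 throughout.

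None of the AhR targets was called at the pooled doses. Of 8 such genes, 0 were higher and 1, Cyp1a1, was lower at an unadjusted p under 0.05 (median -0.05). Cyp1a1, the monooxygenase most strongly driven by AhR, had log2 ratios of 1.85, 4.39, 1.15, 0.36 and 1.73 in vehicle mice, 0.24, 0.79, 0.86, -0.19 and 1.90 in low-dose mice and 1.48, 0.90, 0.29, 0.42 and 0.47 in medium-dose mice. The ranges overlapped, and the difference of -1.15 ± 0.47 (SE, limma adjusted p 0.873) was -0.62 at its smallest when 1 mouse was left out. At the high dose the values spread from 0.49 to 7.33. Cyp1b1 had a difference of -0.34 ± 0.19 and the AhR repressor gene Ahrr one of -0.07 ± 0.11 (SE, limma adjusted p 0.873 and 0.918). Of 14 antioxidant targets of NRF2 and of 12 glutathione and phase II conjugation genes, 0 were higher and 0 lower.

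**Figure D4:**
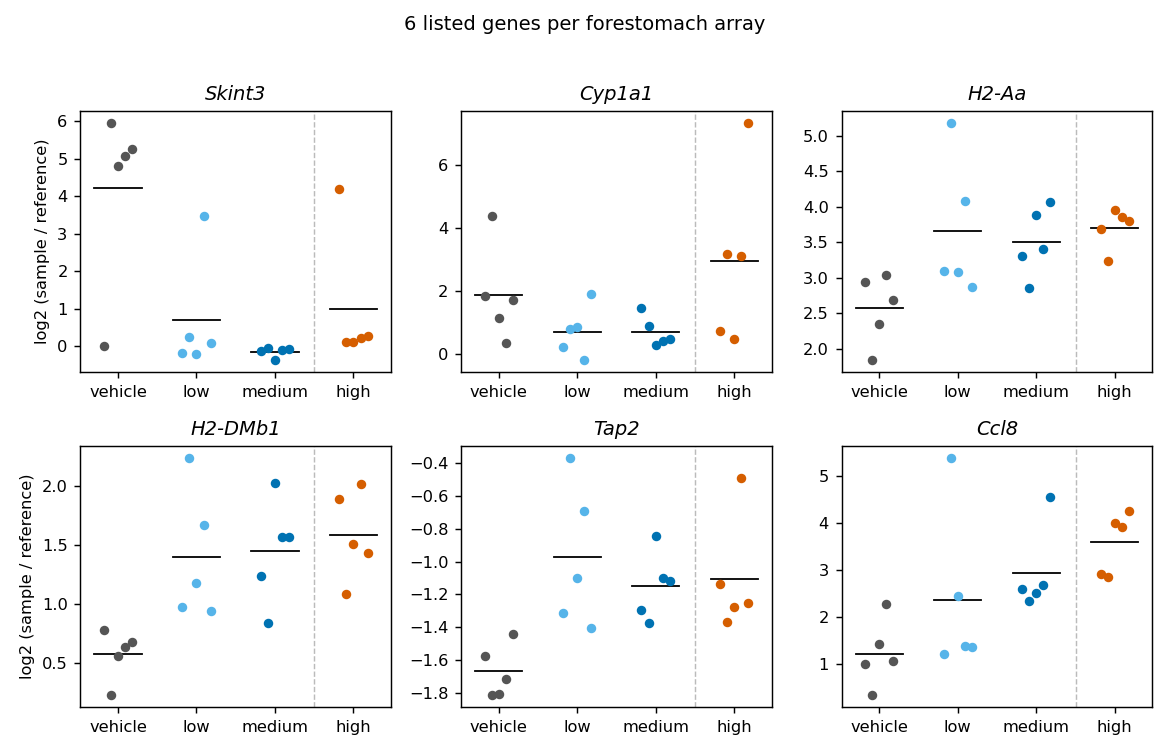
Log2 ratio of sample over reference (y axis) of 6 listed genes on each of the 20 forestomach arrays by dose group (x axis); points are mice, short lines group means, and the dashed line sets off the high dose. Skint3 was high in 4 of 5 vehicle and 1 of 10 low- and medium-dose mice, Cyp1a1 overlapped between groups, and in H2-DMb1 and Tap2 the pooled doses did not overlap vehicle.

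Of 20 p53 targets, 4 were higher at an unadjusted p under 0.05, against 2.48% of all genes higher and 2.85% lower, which hold for the other lists of this paragraph too. The 4 were Trp53inp1 (0.52), Ccng1 (0.50), Bbc3 (0.37) and Tnfrsf10b (0.20), and Sesn2 (-0.40) was lower. The count of 4 was 1 to 9 under other settings, where 482 to 3816 of all genes were higher, and 2 to 5 with 1 mouse left out. The median difference was 0.11. The mean log2 ratio over the p53 targets was -0.164 to -0.049 in vehicle mice, -0.065 to 0.051 in low-dose and -0.019 to 0.069 in medium-dose mice, and 9 of 10 dosed mice were above all vehicle mice. The arrest gene Cdkn1a, with 0.39 to 1.41 in vehicle and 0.81 to 1.31 at the pooled doses, had a difference of 0.10 ± 0.12 (SE, limma adjusted p 0.901), and Mdm2, the feedback inhibitor of p53, one of 0.08. Of 20 cell cycle and mitosis genes, 1 was higher, Ube2c (0.23), and of 18 DNA repair genes, 1 was higher. In the epithelium, 0 of 13 squamous keratins and 0 of 10 basal and squamous identity genes were higher or lower. Of 22 cornified envelope genes, Ivl (involucrin, -0.83), Tgm1 (-0.40) and Sbsn (-0.24) were lower and Sprr2f (0.64) was higher. The heat shock genes Hspa1a (-0.92), Hsph1 (-0.52) and Hsp90aa1 (-0.32) were lower among 13 heat shock and unfolded protein genes, and the collagen genes Col1a1 (0.38) and Col4a2 (0.24) were higher among 15 collagen and matrix genes. None of these passed the test over all genes, and the limma adjusted p was 0.873 for each of those at an unadjusted p under 0.05.

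The next comparison asked whether the high dose differed from the pooled doses. In limma, 5 genes were DEGs, all higher at the high dose (0.0135%), and 0 were lower. Of these, 3 had a symbol: Gm21944 (NR_002880), a transcript of unassigned function, Ces2f (NM_001079865), a carboxylesterase, and Ccbe1 (NM_178793), a secreted factor of lymphatic vessel growth. Gm21944 had log2 ratios of -0.10 to 0.30 in vehicle, 0.23 to 0.50 at the low, 0.48 to 1.30 at the medium and 1.30 to 2.34 at the high dose. It was well above background on 1 of 5 vehicle and 3 of 5 low-dose arrays only, and on all medium- and high-dose arrays. It rose by 1.06 ± 0.13 (SE, limma adjusted p 0.0084) from the pooled doses to the high dose, while the pooled doses were 0.45 ± 0.17 (SE, limma adjusted p 0.873) above vehicle. Ces2f rose by 1.04 ± 0.13 (SE, limma adjusted p 0.0089), from 0.81 to 1.51 at the pooled doses to 1.91 to 2.55 at the high dose, and Ccbe1 by 0.66 ± 0.09 (SE, limma adjusted p 0.0219). Ces2f at the pooled doses had overlapped vehicle (0.50 to 1.06), where it was well above background on 3 of 5 arrays. Without high-dose mouse 17, 18 or 20, the difference of Ces2f did not pass, nor did that of Ccbe1 without mouse 8, 13, 14, 15, 16, 17, 18 or 20 (limma adjusted p up to 0.107), and the number of DEGs was 1 to 8 when 1 mouse was left out: 1 without mouse 17 or 18, 2 without mouse 8, 13, 14, 15 or 20, 3 without mouse 6 or 19, and 8 without mouse 7 or 9. Median centring in place of loess gave 2 DEGs, Gm21944 and Ces2f.

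Lung and forestomach of the same mice were compared by the difference of the 2 pooled effects, 14 lung arrays (mouse 7 has none) against the 15 of forestomach. In limma, 138 genes differed, 128 with a higher change in lung (0.344%) and 10 with a higher change in forestomach (0.0269%), and in lung alone the pooled doses gave 218 DEGs (186 up, 32 down). With the mouse as a block, since a number stands for 1 animal in both tissues, 58 genes differed (54 and 4), of which 53 were among the 138. The lung of low-dose mouse 6 held other tissue genes: its scores were 1.65 for squamous keratins, 2.59 for cornified envelope genes and 3.28 for skeletal muscle genes, against at most -0.14, 0.20 and 1.15 in the other 13 lungs, and their part in the result was not tested beyond leaving out that mouse. The number of genes also depended on single mice, being 38 without vehicle mouse 3, 46 without vehicle mouse 5, 80 without vehicle mouse 2 and 84 without low-dose mouse 6. Mouse 3 was the only vehicle mouse on forestomach slide 3 and mouse 5 the only one on lung slide 1. Leaving out either also removed the contrast with vehicle of that slide.

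Among well-measured genes, the 3 largest differences toward lung were those of Gdf15, Spc25 and Mki67. Gdf15, a stress-induced cytokine and p53 target, had log2 ratios of -3.00 to -2.67 in vehicle and -3.04 to -2.28 in dosed forestomach, against -2.78 to -2.04 in vehicle and -0.63 to 0.65 in dosed lung. Its effects differed by 2.14 ± 0.21 (SE, 95% interval 1.71 to 2.58, limma adjusted p 6.73e-06), and the forestomach effect alone was 0.06 ± 0.11 (SE). For Spc25, a kinetochore subunit, the effects differed by 2.10 ± 0.18 (SE, limma adjusted p 1.04e-06), and dosed lung (-2.23 to -1.35) reached the level that forestomach had with or without BbF (-2.13 to -1.49). For Mki67, the proliferation marker, the difference was 1.86 ± 0.23 (SE, limma adjusted p 0.000152) with a forestomach effect of 0.02 ± 0.14 (SE). Car14, a carbonic anhydrase, was the largest toward forestomach among well-measured genes, at -1.20 ± 0.24 (SE, limma adjusted p 0.019): it was 0.54 to 1.42 in all 15 forestomachs, while it was 2.11 to 2.78 in vehicle and 0.69 to 1.85 in dosed lung. Mfap2, a microfibril protein (-0.90, limma adjusted p 0.0054), and Rbfox3, a splicing factor best known from neurons (-0.65, limma adjusted p 0.0253), followed, but Rbfox3 was well above background on 2 of 15 forestomach arrays only. Both were lower in dosed lung (-0.66 and -0.45), with forestomach effects of 0.24 and 0.20 that did not pass. The call of Mfap2 was lost without vehicle mouse 3 or 5 (limma adjusted p up to 0.0648), and that of Rbfox3 without any 1 of the 5 vehicle mice or medium-dose mouse 12 or 13 (up to 0.174). Car14 lost its call with median centring (-0.76, limma adjusted p 0.126) and with the mouse as a block (-1.18, limma adjusted p 0.196), and also without any 1 of the 5 vehicle mice.

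By list, 6 of 20 p53 targets (Gdf15, Cdkn1a, Bax, Aen, Phlda3 and Sesn2) and 10 of 20 cell cycle and mitosis genes had a DEG-sized difference between the tissues, each with the higher change in lung, against the 0.344% of all genes. The median effect of the p53 list was 0.11 in forestomach and 0.44 in lung, and that of the cell cycle list 0.01 and 0.75. Cdkn1a differed by 1.34 and Ahrr, the AhR repressor, by 1.29 (limma adjusted p 0.0036 and 0.0054). For Cyp1a1 (0.73) and Cyp1b1 (1.29) the difference between tissues did not pass (limma adjusted p 0.920 and 0.152). For Skint3 the effects differed by 4.01 (limma adjusted p 0.0423), with the forestomach values described above and lung values near 0. Its probe was not well above background on any lung array, so the lung values have only a bound. The forestomach difference of Skint3 on its own did not pass (-4.12, limma adjusted p 0.731). The fit of both tissues used a shared variance per probe, flat lung arrays included. For the antigen presentation, macrophage and clock genes, 0 differences passed: H2-DMb1 differed by -0.85, Ctsh by -0.89 and Dbp by 0.96 on its brightest probe (limma adjusted p 0.185, 0.142 and 0.583).

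**Figure D5:**
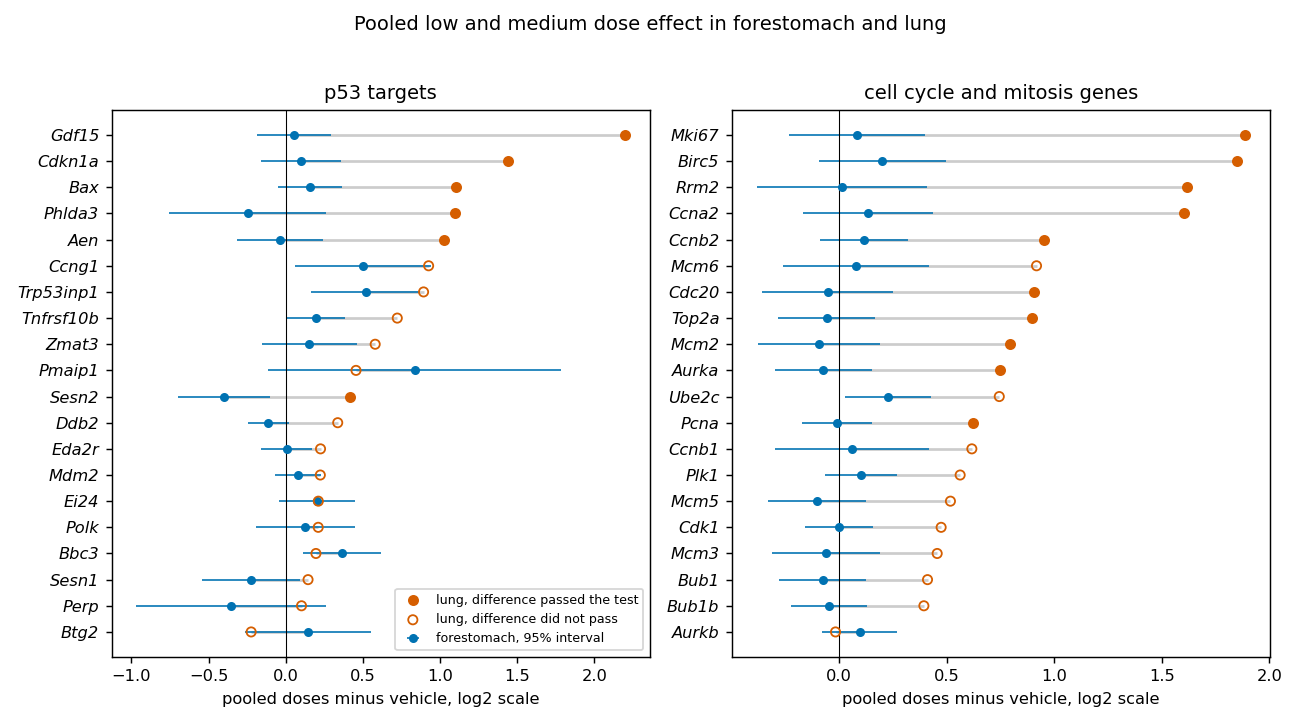
Difference between the pooled doses and vehicle on the log2 scale (x axis) for p53 targets (left) and cell cycle and mitosis genes (right) in forestomach (blue, with 95% interval) and lung (orange; filled where the tissues differed at an adjusted p of 0.05 or less and 1.5-fold or more). The forestomach medians were 0.11 and 0.01, with p53 targets between -0.40 (Sesn2) and 0.84 (Pmaip1), and the lung points reach 2.20 for Gdf15 and 1.89 for Mki67.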

How the data were processed

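RNA from random sections of forestomach (Cy5) and universal mouse reference RNA (Cy3) were hybridised to 2-colour Agilent 8x60K arrays without dye swap. The deposited scanner files hold spot intensity values as the authors obtained them with Feature Extraction; the authors' processed table holds normalized log2 ratios and served as an alternative. Here the median signals of 59305 non-control spots were taken without background correction, normalized by loess within each array, non-uniform spots left out, and averaged by probe (limma 3.58.1, R 4.3.3). Pooled doses were compared with vehicle in limma with the slide as a block and Benjamini-Hochberg adjustment; the Fs statistic of the methods was not used. A gene was a DEG when any of its probes had an adjusted p at or below 0.05 and differed at least 1.5-fold, and the brightest probe stood for a gene in lists. Symbols came from RefSeq (GRCm38.p6), with 26413 probes matched.

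Named genes were the 12 largest DEGs per direction with a RefSeq symbol, well above background throughout vehicle or the pooled doses, and not opposed by the brightest probe. With fewer than 12, the 12 of smallest p were added as not passing. Each list contributed its DEGs or its highest and lowest measured members, and each other comparison its 3 largest per direction. Genes outside this rule were chosen after their values were seen. Members and lists were chosen with earlier results of these data known. Same-numbered lung and forestomach samples come from the same mouse, which gives the pairing used as a block. No label says more of how mice were housed or sampled, so p-values measure the spread between these mice. Alternatives covered normalization, slide, filters and each mouse left out; covariates of other-tissue scores and the omission of arrays with high Atp4a were chosen after seeing the data. The number of arrays limits the precision. The statistics were tested on simulated data.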

Additional observations from a re-analysis of the deposited data

Results flagged for a closer look

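Of 183 sets of 4 to 10 values examined, 21 (11.5%) had a single mouse far from the rest, where chance gives about 1 in 20. In the named genes, vehicle mouse 3 was apart in Gpatch1 (0.26), Dido1 (0.66) and Kcna1 (2.28), and vehicle mouse 5 in Dbp (-1.06). Mouse 3 was the only vehicle mouse on slide 3. The low- and medium-dose mice of that slide were lower than it in each of these genes, for Dido1 at -0.04 to 0.13. Medium-dose mouse 12 was apart in Ppfia4 (0.95) and medium-dose mouse 15 in Sgsm2 (-0.34), within its own dose and within the pooled doses, while low-dose mouse 9 was apart in Rpap2 (0.24). In Skint3, vehicle mouse 1 (0.020), low-dose mouse 9 (3.49) and medium-dose mouse 13 (-0.37) were apart. Low-dose mouse 7 was apart in H2-Aa (5.18), Nfil3 (-0.26) and the score of the MHC class I processing genes (0.97), and medium-dose mouse 15 in Ccl8 (4.55). High-dose mouse 20 was apart in Gm21944 (2.34). The score of adipocyte genes was apart in low-dose mouse 8 (3.01), and that of skeletal muscle genes in vehicle mouse 5 (3.83) and medium-dose mouse 12 (4.32).

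The pooled effect differed between lung and forestomach, by limma, for 138 genes. Among them were Gdf15 (2.14), Spc25 (2.10) and Mki67 (1.86), with the higher change in lung. For Car14 (-1.20), Mfap2 (-0.90) and Rbfox3 (-0.65) the change was lower in lung. Their lung effects were -1.21, -0.66 and -0.45, and their forestomach effects were -0.01, 0.24 and 0.20.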

How the results depend on the processing

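The count of 0 DEGs at the pooled doses was 0 under the other normalizations, filters and slide terms run. It was 1 (Skint3) without the 8 arrays of high Atp4a and 2 (Wdr72 and Nr1d2) with 3 tissue scores as covariates, and 0 to 2 when 1 mouse was left out (2, Pqlc3 and Skint3, without vehicle mouse 1). Both fits that called Skint3 left out mouse 1, the vehicle mouse without a high Skint3 value. Leaving out 1 mouse gave 0 to 1 DEGs for the low dose, for the medium dose and for medium against low. The 5 DEGs of the high dose against the pooled doses were 2 with median centring and 1 to 8 with 1 mouse left out. The 138 genes that differed between lung and forestomach were 79 with median centring, 58 with the mouse as a replicate block, and 38 to 158 with 1 mouse left out. Ccbe1 lost its call without the slide term and with median centring (limma adjusted p 0.227 and 0.139) and in 8 of 20 fits with 1 mouse left out, and Rbfox3 without the slide term, with median centring and with the block (0.212, 0.644 and 0.0653). No difference of the 12 named genes reversed in 204 values under other settings, 180 with 1 mouse left out and 36 from single slides. These genes were chosen for their small p in the same comparison, and the refits share its arrays. The unchanged direction is therefore no independent support. On single slides, the difference lay at least 1 standard deviation of the vehicle mice from the main estimate in some genes. This held on 1 slide for Dbp, Kcna1, Ppp2r2c and Rpap2 and on 2 for Stk38l. The cause of these shifts was not tested. Genes near background, such as Skint3 in dosed mice, have only a bound there.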
